A study of Mus musculus with 4 samples.

Results

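A set of 9 genes of the chemokine system, read by 16 probe sets, were followed in embryonic mouse brain with a conditional double knockout of Sox4 and Sox11. They comprise 6 CC chemokines (Ccl2, Ccl3, Ccl4, Ccl6, Ccl9 and Ccl12) and 3 receptors carried by leukocytes (Ccr1, Ccr2 and Cx3cr1). A probe set, a group of short probes against 1 transcript, was included when the platform annotation gave it exactly 1 of these 9 symbols, which selected 16 of 45037 non-control probe sets and 9 of 18193 genes with a symbol. The genes were put together with results of the knockout against control comparison known. Their changes in that comparison are therefore given as a description, without a test, and a count of members is not evidence for a response of the family.

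The study used 4 Affymetrix arrays of 1 colour, each hybridised with RNA from whole brain at embryonic day 14.5 of mice with a mixed 129SvJ/C57Bl/6J background. All 4 carried Sox4 flox/flox and Sox11 flox/flox. The 2 control arrays had these alleles alone, and the 2 double-knockout arrays had Brn4::Cre in addition. Brn4 is another name of Pou3f4, so recombination is limited to the lineages in which that driver is active, and cells outside them keep both genes. The title of the series speaks of spinal cord, whereas every sample is labelled as brain. The labels call the arrays biological replicates without saying whether an array held 1 embryo or a pool, so the errors below measure the spread between these arrays.

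Chemokines are small secreted proteins that direct the movement of leukocytes through receptors coupled to inhibitory G proteins. The CC class carries adjacent cysteines near the start of the mature protein. In the embryonic brain the main leukocytes are microglia, macrophages that enter from the yolk sac early in development, together with macrophages of the meninges and vessels. Microglia carry Cx3cr1, whose ligand Cx3cl1 is made by neurons, while Ccr2 marks monocytes of the blood.

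Ccl9, Ccl6, Ccl3 and Ccl4 follow each other on mouse chromosome 11 with no other coding gene between them in the RefSeq gene table, and Ccl2 and Ccl12 lie in a separate group of chemokine genes on that chromosome. Ccr1, Ccr2 and Cx3cr1 lie on chromosome 9. RefSeq promoter windows were at hand for 7 of the 9 genes and are shown for Ccl3, Ccl6, Ccl9 and Cx3cr1, the members whose brightest probe set had the largest differences between the groups. Each runs 5′ to 3′ over the 250 bases before the transcription start, and capitals mark any match to the motifs named after them.
Ccl3, GRCm38.p6, chr11:83649379-83649628, minus strand: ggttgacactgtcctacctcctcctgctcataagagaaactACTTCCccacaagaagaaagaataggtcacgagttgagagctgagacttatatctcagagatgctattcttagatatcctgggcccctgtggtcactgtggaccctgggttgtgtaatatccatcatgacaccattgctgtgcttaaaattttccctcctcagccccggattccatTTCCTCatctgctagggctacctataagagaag
Ccl6, GRCm38.p6, chr11:83593088-83593337, minus strand: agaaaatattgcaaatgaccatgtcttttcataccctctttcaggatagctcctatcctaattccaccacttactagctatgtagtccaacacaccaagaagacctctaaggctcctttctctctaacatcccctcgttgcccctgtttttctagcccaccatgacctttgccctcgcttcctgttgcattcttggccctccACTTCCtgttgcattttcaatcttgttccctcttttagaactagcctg
Ccl9, GRCm38.p6, chr11:83578637-83578886, minus strand: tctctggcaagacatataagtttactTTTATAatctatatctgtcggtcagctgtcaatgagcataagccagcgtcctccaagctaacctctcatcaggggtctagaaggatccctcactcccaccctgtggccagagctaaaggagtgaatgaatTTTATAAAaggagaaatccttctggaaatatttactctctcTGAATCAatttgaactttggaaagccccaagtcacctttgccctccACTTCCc
Cx3cr1, GRCm38.p6, chr9:120068297-120068546, minus strand: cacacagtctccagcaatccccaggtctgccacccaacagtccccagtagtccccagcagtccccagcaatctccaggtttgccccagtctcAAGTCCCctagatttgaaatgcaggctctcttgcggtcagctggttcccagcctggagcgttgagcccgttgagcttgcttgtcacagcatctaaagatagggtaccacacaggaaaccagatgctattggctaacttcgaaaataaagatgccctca

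Motifs were searched on both strands. GGAAGT, a core of sites for the myeloid factor PU.1 and other ETS proteins, was found in Ccl3, Ccl6, Ccl9 and Ccl12, 4 of the 7 windows, and in 19.7% of 32841 promoter windows of the same length. GAGGAA, another such core that can overlap the first, was found in Ccl3, Ccl12 and Ccr1, against 23.3% of all windows. TGANTCA, a loose form of the AP-1 motif that allows any middle base, occurred in Ccl9 alone of the 7 (6.75% of all windows). The match there was TGAATCA, with A as the middle base. TATAAA occurred in Ccl9 and Ccl12 (12.4%). The NF-kB motif was first searched in a longer form, with no match in the 7 (0.356% of all windows). Its first letters, GGGANTT, searched after that, occurred in Cx3cr1 alone of the 7 (14.4%), and TTGCNNAA, a form of the C/EBP motif (9.57%), in none of them. These matches describe the letters only.

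The targeted genes and the tissue were checked first. Sox11 went from 7941.1 and 11472.6 in controls to 972.6 and 1106.7 in knockouts at probe set 1431225_at, and Sox4 from 15114.1 and 14671.3 to 2077.4 and 2515.9 at 1419156_at. All 6 Sox11 probe sets fell, and of the 6 Sox4 probe sets tested 4 fell, 1 rose (1419157_at, log2 change 1.83) and 1 did not pass (limma). Probe positions were not used, so which probe sets lie in the deleted parts is unknown. Median signals were 262.0 to 286.7, and array pairs correlated across probe sets with r of 0.962 to 0.974, a description only. The neural markers of the tissue check were bright, with no signal under 1420 among 13 genes, including Tubb3, Dcx and Fabp7.

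Ccl6, a CC chemokine of myeloid cells that acts through Ccr1, had signals of 95.3 and 108.5 in controls and 561.1 and 555.0 in knockouts at probe set 1417266_at. Both knockout arrays were high and close to each other, and the groups did not overlap. The mean went from 101.9 ± 9.33 to 558.0 ± 4.31 (SD, n = 2 each), 5.48 times the control signal. On the scale log2(signal + 16), used for every log2 change here, the difference was 2.29 ± 0.08 (SE over the 2 arrays of each group). The second Ccl6 probe set, 1420249_s_at, gave 88.7 and 81.5 in controls and 91.5 and 142.1 in knockouts. It showed no like separation, with a log2 change of 0.37 ± 0.28. Its suffix marks probes shared between transcripts.

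Ccl3, a macrophage inflammatory protein that binds Ccr1, had a log2 change near that of Ccl6 but a wider spread. Its single probe set, 1419561_at, gave 77.0 and 35.8 in controls and 424.8 and 338.7 in knockouts. The lower knockout array had 4.4 times the signal of the higher control array. Means were 56.4 ± 29.1 and 381.8 ± 60.9 (SD, n = 2 each), with a log2 change of 2.51 ± 0.45. The control arrays themselves differed 2.15-fold, and the change ranged from 2.09 without control 2 to 2.93 without control 1. With a pseudocount of 64 in place of 16 it was 1.90, against 1.91 for Ccl6. Ccl3 had the larger change of the pair in full, but without control 2 Ccl6 had it (2.37).

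Ccl9, a further Ccr1 ligand made by macrophages, was higher at both of its probe sets. At 1417936_at the controls gave 147.5 and 139.9 and the knockouts 348.9 and 373.3. At 1448898_at the controls gave 90.2 and 59.2 and the knockouts 209.0 and 258.0. At each probe set both knockout arrays lay above both control arrays, with log2 changes of 1.24 ± 0.06 and 1.47 ± 0.29 (SE). The platform annotation lists both under the same source sequence, so they are repeat readings of 1 transcript.

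Ccl4, the close relative of Ccl3 that lies beside it on the chromosome, did not follow it. Its probe set 1421578_at gave 245.1 and 193.0 in controls and 205.4 and 268.8 in knockouts. The groups overlapped, and the log2 change was 0.10 ± 0.24 (SE). Its sign turned when control 2 or knockout 2 was left out (-0.06 and -0.08).

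Ccl2 and Ccl12, ligands of Ccr2 that attract monocytes, gave low signals. Ccl2 (1420380_at) read 79.5 and 128.7 in controls and 78.8 and 117.4 in knockouts, and the groups overlapped (log2 change -0.06 ± 0.39). Ccl12 (1419282_at) read 37.0 and 24.2 in controls and 42.3 and 97.7 in knockouts. Its knockout arrays lay above the controls by a narrow margin and differed 2.31-fold from each other, so the log2 change of 0.82 ± 0.52 was carried mostly by knockout 2. Without that array it was 0.34, and without knockout 1 it was 1.3.

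Among the receptors, Cx3cr1 had the clearest difference. Its probe set 1450020_at gave 480.5 and 603.4 in controls and 1489.5 and 1342.1 in knockouts. Both knockout arrays lay well above both controls, the lower being 2.22 times the higher control. Means were 542.0 ± 86.9 and 1416 ± 104 (SD, n = 2 each), with a log2 change of 1.37 ± 0.18 (SE). The dimmer Cx3cr1 probe set 1450019_at gave 94.7 and 62.9 in controls and 114.6 and 47.8 in knockouts, and its groups overlapped.

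Ccr1, the receptor of Ccl3, Ccl6 and Ccl9, showed no common direction at its 2 probe sets. The brighter, 1419609_at, read 116.8 and 79.3 in controls and 107.3 and 160.0 in knockouts, with overlapping groups and a log2 change of 0.39 ± 0.35. The other, 1419610_at, read 47.8 and 29.4 against 20.1 and 29.1 (log2 change -0.42 ± 0.29). Its knockout arrays lay just below the controls, the only such case among the 16 probe sets. Both were designed on the same source sequence, and their mean change was -0.01.

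The 4 probe sets of Ccr2, the receptor of Ccl2 and Ccl12 on monocytes, were all dim and disagreed. At 1421186_at the controls read 24.0 and 41.2 and the knockouts 62.9 and 63.7, and at 1421187_at the controls read 2.4 and 6.1 and the knockouts 40.0 and 16.7. In both, the knockout arrays lay above the controls (log2 changes 0.73 ± 0.26 and 1.09 ± 0.41). At 1421188_at and at the brightest, 1460067_at, the groups overlapped and the changes were -0.32 ± 0.34 and -0.35 ± 0.74. At 1460067_at the arrays of 1 group differed by more than the groups did, with 112.0 and 53.2 in controls and 95.4 and 33.1 in knockouts. Presence or absence of a transcript was not called from these signals, and no direction is drawn for Ccr2.

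**Figure D1:**
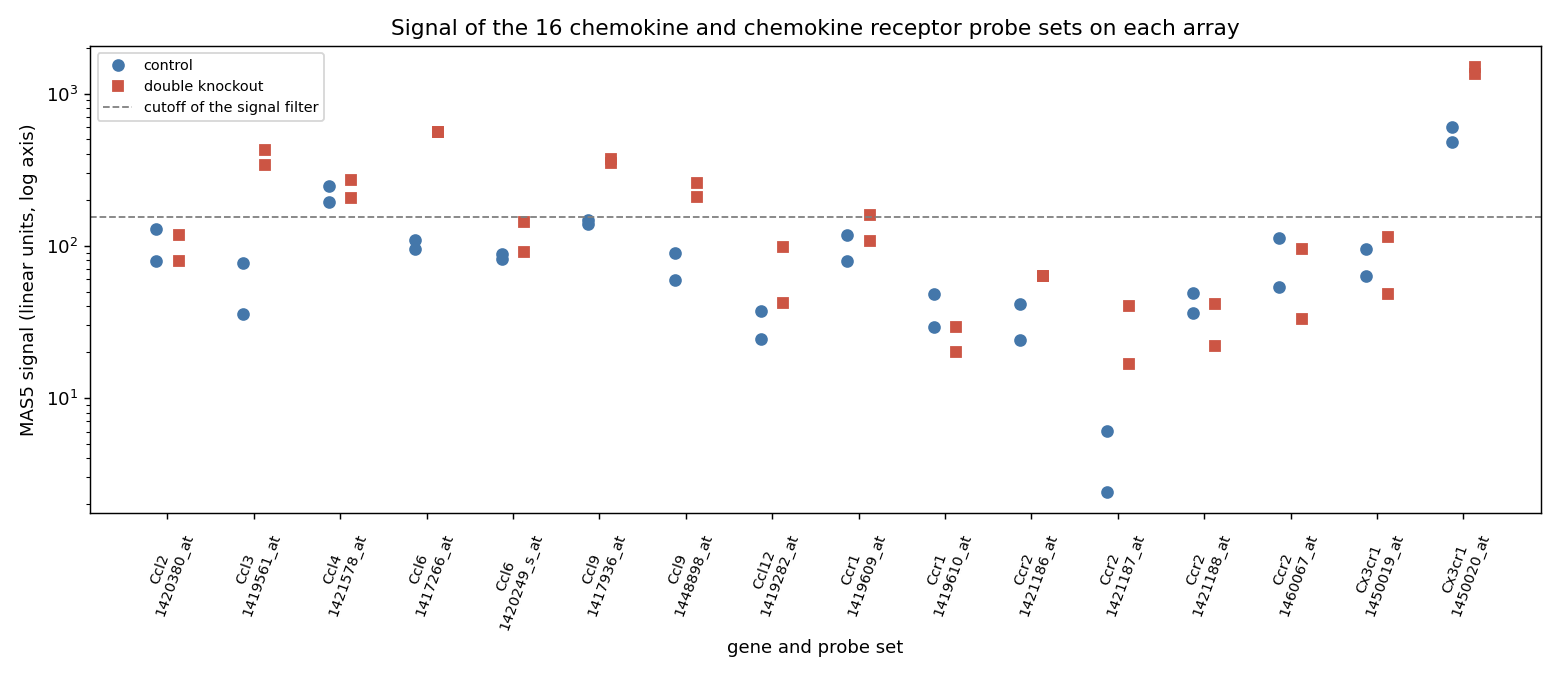
MAS5 signal on a log axis for each of the 16 member probe sets on the 2 control arrays (circles) and the 2 double-knockout arrays (squares). The dashed line is the signal of the filter, 154.6. Both squares lie above both circles at 9 probe sets, with a gap of more than 2-fold at Ccl3, at 1 probe set each of Ccl6, Cx3cr1 and Ccr2 (the very dim 1421187_at) and at both of Ccl9.

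Over the 9 genes at their brightest probe sets, 5 had both knockout arrays above both control arrays (Ccl3, Ccl6, Ccl9, Ccl12 and Cx3cr1) and 4 overlapped (Ccl2, Ccl4, Ccr1 and Ccr2). Over the 16 probe sets, 9 were above, 1 was below and 6 overlapped. Of all 45037 non-control probe sets, 25.4% had both knockout arrays above and 27.1% below. The median log2 change was 0.82 over the 9 genes and 0.56 over the 16 probe sets, and the median of the 12489 genes tested was 0.06. The 9-gene median rested on Ccl12 and was 0.34 without knockout 2 and 1.29 without knockout 1. The 9 genes were not uniform, and the largest differences lay in Ccl3, Ccl6, Ccl9 and Cx3cr1.

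The signal filter removed most members. It kept probe sets whose mean log2 value over the 4 arrays lay above the 40th percentile, a value of 7.415 (signal 154.6). It kept 4 of the 16 probe sets, of Ccl4, Ccl6, Ccl9 and Cx3cr1. Of these 4, Ccl6 and Ccl9 passed only through their knockout arrays, since both controls lay under 154.6. Ccl3 missed the limit with a mean log2 value of 7.37, while the nearest inside were Ccl4 at 7.92 and Ccl9 at 7.94. In the limma fit over all 27022 probe sets kept, Ccl6, Ccl9 and Cx3cr1 passed an adjusted p of 0.05, where 11.7% of all probe sets did so in that direction and 11.6% in the other. Without the filter, 5 of the 16 passed, namely Ccl3, Ccl6, both of Ccl9 and Cx3cr1, against 4.82% of all probe sets. Ccl9 did not pass when knockout 2 was left out, which left 2 members past the threshold. Without control 2 there were 5, and with the filter at the 60th percentile Cx3cr1 alone was tested and passed. Because the members were chosen on this contrast, nothing is read from these counts.

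**Figure D2:**
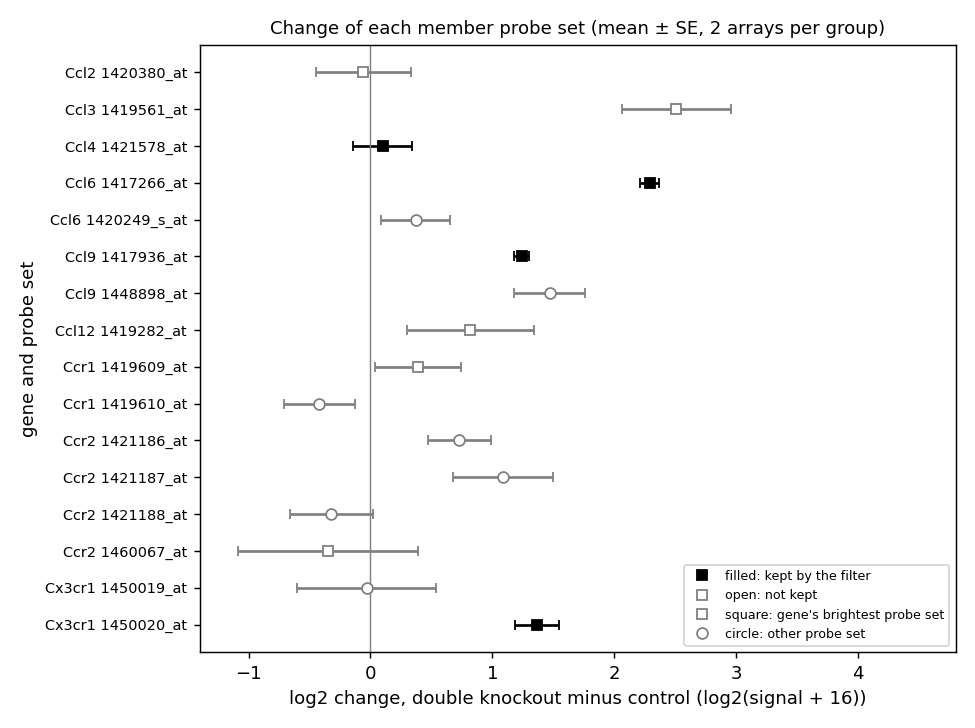
Log2 change (double knockout minus control, on log2(signal + 16)) of the 16 member probe sets, with bars of 1 SE over 2 arrays per group. Filled symbols were kept by the signal filter, open ones were not, and squares mark the brightest probe set of a gene; Ccl3 and 1 of the 2 probe sets of Ccl6 lie above 2, and the probe sets of Ccr1 and Ccr2 fall on both sides of 0.

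Markers of microglia and macrophages were higher in the knockout, as were some of the members. Of 20 tested, 18 rose and 0 fell (limma, adjusted p under 0.05), with a median log2 change of 1.42, where 16.3% of all genes rose and 11.0% fell. Mpeg1, a pore-forming protein of macrophages, rose by 2.35, C1qa, a complement chain, by 2.14, and C1qb by 2.01. Sall1 (0.19) and Siglech (0.60) did not pass. Among those that rose, Gpr34 and Tmem119 had both controls under 154.6, so they were tested only because of their high knockout arrays. A marker dim on all arrays could not enter the count. Itgam, too dim to be tested, read 106.6 and 33.8 in controls and 35.1 and 81.3 in knockouts (log2 change -0.15). The summed signal of the 22 markers with a probe set was 11250 and 11340 in controls and 34260 and 30600 in knockouts, and none was at 0. The count that rose was 15 without knockout 1 and 16 without knockout 2. The neural markers moved in both directions beside them. Of 13 tested, 4 rose and 3 fell (limma), with a median log2 change of 0.04. The neuronal genes Tubb3 (-0.75), Dcx (-0.73) and Stmn2 (-0.38) fell, and Snap25, a synaptic protein (0.62), and the progenitor genes Nes (0.61), Pax6 (0.44) and Vim (0.22) rose. Nes did not pass without knockout 1 (0.55), Pax6 without control 2 (0.36) or knockout 1 (0.39), and Vim without control 1 (0.27), control 2 (0.17) or knockout 2 (0.15). In bulk RNA, more cells of a type and more RNA per cell cannot be told apart.

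Markers of other leukocytes were mostly too dim to be tested. Of those tested, 1 of 4 monocyte genes rose, Itga4, an integrin chain (1.07; not past without knockout 1, 1.03, or knockout 2, 1.11). The single tested neutrophil gene, Csf3r (0.42), and the single tested gene of T and NK cells, Zap70 (0.49), did not pass, and no B cell gene was bright enough to be tested. Zap70 did pass under median centring and with a replicate block, settings listed below. Summed signals ran from 1074 to 1326 in controls and from 1852 to 1919 in knockouts for 9 monocyte genes. Itga4 alone read 569.9 and 358.5 in controls and 992.3 and 943.2 in knockouts, so it carried much of that difference. The sums ran from 751.8 to 859 and from 829.3 to 885.6 for 10 neutrophil genes. For 11 T and NK genes they ran from 1360 to 1633 and from 1514 to 1981. No listed marker was at 0, and the lowest signals were 2.4 for monocytes and neutrophils and 3.7 for T and NK cells. For 6 B cell genes the sums were 656.9 to 690.9 and 517.3 to 593.9.

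Of 7 tested markers of border macrophages, those of the meninges and vessels, 4 rose, with a median log2 change of 0.36. They were Folr2, a folate receptor (1.06), Stab1, a scavenger receptor (0.67), Mrc1, the mannose receptor (0.39), and Pf4 (0.36). Mrc1 and Pf4 did not pass with any single array left out (0.29 to 0.49 and 0.30 to 0.42), Folr2 without control 1 (0.57), knockout 1 (1.09) or knockout 2 (1.04), and Stab1 without knockout 1 (0.61). Their summed signal was 5786 and 5970 in controls and 7018 and 7930 in knockouts. Of 5 erythroid markers 0 changed at an adjusted p of 0.05 (limma), and their sums were 38110 and 38540 against 40040 and 40700. Of 10 endothelial markers 5 rose, with a median of 0.39, led by Tek (0.65), Cdh5 (0.50) and Kdr (0.47), and none of these 3 passed when control 1 (0.42, 0.51 and 0.47) or knockout 1 (0.60, 0.52 and 0.34) was left out. Of 4 megakaryocyte and platelet markers Gp1bb, a platelet glycoprotein chain, fell (-1.20; another of its probe sets, at -0.60, did not pass), with sums of 1948 to 2020 in controls and 1673 to 1694 in knockouts for 7 genes.

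The members were then set against the macrophage markers of the same array, by subtracting the mean log2 value of the 22 markers. That mean rose by 1.43. Cx3cr1 changed by -0.06 on this relative scale, with overlapping groups, and Ccl12 by -0.61, also with overlap. Ccl9 changed by -0.19, and both of its knockout arrays lay below both controls. Ccl3 (1.08) and Ccl6 (0.86) were higher on this scale in both knockout arrays than in both controls. For Ccl6 this was read at its brightest probe set, 1417266_at. Its second probe set, 1420249_s_at, had a log2 change of 0.37, and the average of its probe sets 1.33, both less than the marker mean. Of the 22 markers, tested or not, 1 had a larger log2 change than Ccl3 and 2 than Ccl6, whereas 14 had a larger one than Ccl9 and 12 than Cx3cr1. The marker above Ccl3 was Trem2, a receptor of microglia, which was too dim to be tested and went from 33.9 and 28.5 to 406.6 and 289.9 (log2 change 2.93). Ccl2, Ccl4, Ccr1 and Ccr2 were lower relative to the markers at their brightest probe sets, by -1.49, -1.32, -1.04 and -1.78. Their own log2 changes there were -0.06, 0.10, 0.39 and -0.35, so these values are mostly the subtracted marker mean. The probe sets of Ccr2 ran from -0.35 to 1.09, and no direction is drawn for it here either. Whether the level of the markers has a part in these values was not tested.

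**Figure D3:**
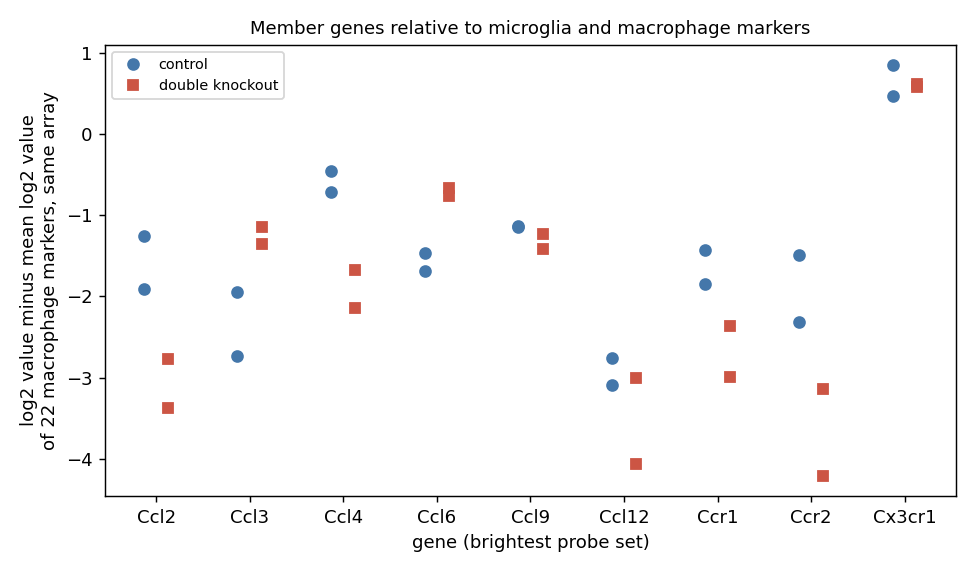
Log2 value of each member gene at its brightest probe set minus the mean log2 value of 22 microglia and macrophage markers on the same array, for control (circles) and double-knockout (squares) arrays. Heights of different genes are not comparable; within a gene, Ccl3 and Ccl6 are higher in the knockout, and Cx3cr1 overlaps between the groups.

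The remaining chemokines were counted by family, whatever their change. Of 18 other CC ligands, 12 had a probe set with 1 symbol and 3 were bright enough to be tested. Of these 3, Ccl27a, a chemokine of epithelia, fell from 3836.5 and 3447.4 to 2179.7 and 1947.3 (log2 change -0.82 ± 0.11, SE; limma adjusted p = 0.000602), and 0 rose. The Ccl27a probe set has a suffix for probes that can bind other transcripts. Ccl5, Ccl7, Ccl8 and Ccl11, which share receptors with the members, were not tested. Their signals lay between 7.1 and 179.2 on all arrays, and their log2 changes were -0.25, -0.42, -0.15 and -0.30. The median of the 3 tested was -0.19.

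Ligands of the CXC, XC and CX3C classes rose in 3 of 8 tested and fell in 0, with a median of 0.34. Cx3cl1, the ligand of Cx3cr1 that neurons make, went from 397.4 and 442.6 to 678.1 and 626.8 (log2 change 0.62 ± 0.16, SE; limma adjusted p = 0.0202). The groups were apart, but the call was lost without control 1 (0.54), knockout 1 (0.56) or knockout 2 (0.67), and without the filter. Cxcl12, a chemokine that guides migrating neurons, went from 3386.7 and 3427.6 to 4921.4 and 4885.7 (0.52 ± 0.09, limma adjusted p = 0.00206) and passed under every alternative run. The third was Pf4, named above. The count was 1 without control 1, knockout 1 or knockout 2, and 1 without the filter.

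Of the other receptors, 2 of 6 tested fell and 0 rose, with a median of -0.16. Cxcr4, the receptor of Cxcl12 on migrating neurons, went from 1634.3 and 1782.2 to 1197 and 1148.7 (log2 change -0.54 ± 0.12, SE; limma adjusted p = 0.00896). It thus moved against its ligand, and its call was lost without knockout 2 (-0.51). Ackr1, an atypical receptor that binds chemokines without G protein signalling, fell by -0.40, a call lost without control 2 (-0.29), knockout 1 (-0.41) or knockout 2 (-0.38) and under median centring (-0.35). Ackr3, the scavenging receptor of Cxcl12, had a change of 0.15 (adjusted p = 0.283) and did not pass. No receptor passed without knockout 2.

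Among genes that act downstream of chemokine receptors, 9 of 29 rose and 3 fell, with a median log2 change of 0.17. Ptk2b, a tyrosine kinase activated by chemokine receptors, went from 35.0 and 86.2 to 442.0 and 461.5 (2.70 ± 0.35, SE; limma adjusted p = 0.000547). Both of its controls lay under 154.6, so it was tested only because of its high knockout arrays, and it dropped below the filter without knockout 1 or knockout 2. Fermt3, an integrin activator of blood cells, rose by 1.01. Ncf1, a subunit of the phagocyte oxidase (0.90), and Rac2, a GTPase of blood cells (0.89), also rose. The calls of Ncf1 and Rac2 were lost without knockout 1 (0.81 and 0.88) or knockout 2 (0.99 and 0.91). The 3 that fell were Gng2, a G protein gamma subunit (-0.69), Arrb1, an arrestin (-0.40), and Rgs2, a regulator of G protein signalling (-0.37). Genes of this list that were not called differed in direction. Dock2, not tested, went from 178.8 and 179.8 to 36.6 and 56.4 (-1.66), and Vav1 (-0.60) did not pass. Was (0.95) and Itgb2 (0.85), also not tested, were higher in both knockout arrays. Gng2 passed under every alternative run, whereas Arrb1 did not pass with any array left out (-0.33 to -0.47) and Rgs2 did not without control 2 (-0.29), knockout 1 (-0.36) or knockout 2 (-0.38). Of this list 8 genes passed when control 1 was left out, 6 for control 2, 3 for knockout 1 and 4 for knockout 2.

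Cytokines, NF-kB components and myeloid regulators that control chemokine genes rose in 5 of 18 tested and fell in 1, with a median of 0.19. Fos, an immediate early factor of the AP-1 complex, rose by 1.86, Csf1, a growth factor of macrophages, by 1.23, Irf8, a transcription factor of microglia, by 1.07, Jun by 0.87 and Cebpb by 0.79. Another Csf1 probe set did not pass (0.16). Nfkbie, an inhibitor of NF-kB, fell by -0.89. Both of its knockout arrays lay under 154.6 (135.8 and 105.1), so it was tested only because of its higher control arrays. The Irf8 call was lost without knockout 1 (1.06) or knockout 2 (1.08). Leaving out control 2 (0.40), knockout 1 (0.76) or knockout 2 (0.83) ended that of Cebpb, and leaving out control 1 (-0.97), knockout 1 (-1.06) or knockout 2 (-0.73) that of Nfkbie. Rela (0.08) and Nfkb2 (0.66), subunits of NF-kB, and Spi1 (0.13), which encodes PU.1, did not pass. Tnf, Il1a, Il1b and Il6, the inflammatory cytokines that induce several of these chemokines, were too dim to be tested, with log2 changes of -0.06, 0.07, -0.66 and -0.59. Without knockout 1 or knockout 2, 3 genes of this list passed.

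**Figure D4:**
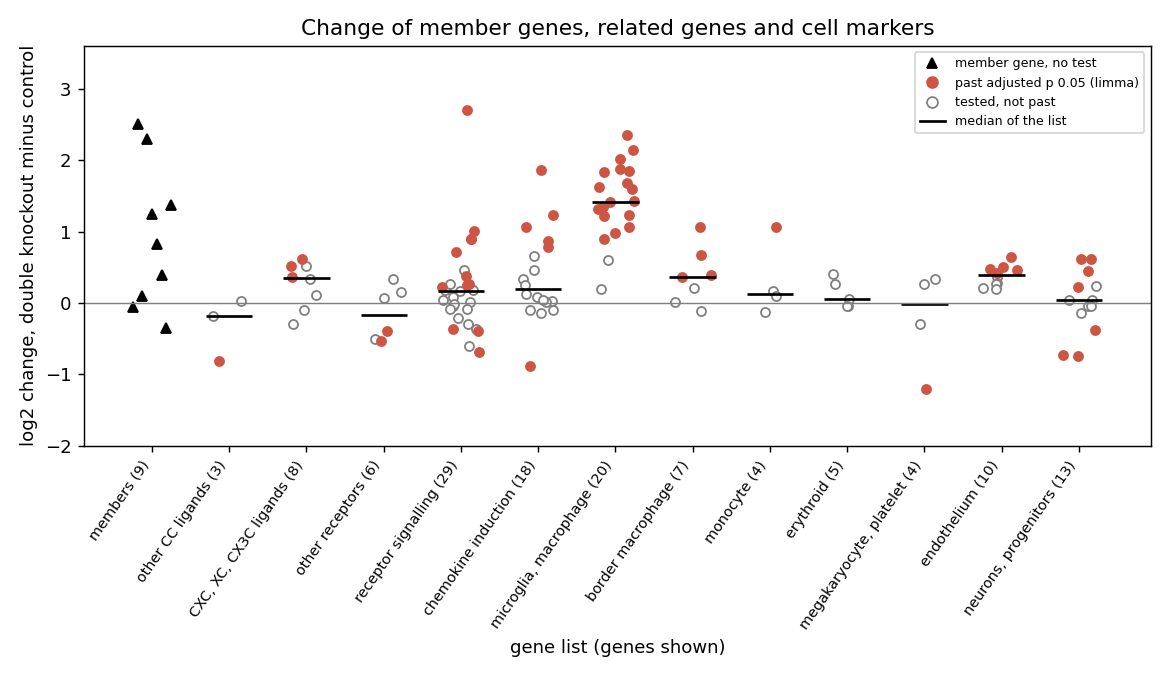
Log2 change of the 9 member genes (triangles, no test) and of tested genes of related lists and cell marker lists (circles, filled where past an adjusted p of 0.05 in limma), with the number of genes in brackets and bars at list medians. The macrophage markers have a median of 1.42, the other chemokine lists have medians from -0.19 to 0.34, and the members spread from -0.35 to 2.51.

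The genes whose values over the 4 arrays lay nearest the median profile of the members were Zfp52, Slc16a7, Plpp7, Lrrc23, Colgalt2, 2500002B13Rik, Entpd1 and Sesn2. Their root mean square differences from it were 0.129 to 0.226 on the log2 scale over 4 arrays. The profile itself was 0.34 on knockout 1 and 1.29 on knockout 2, which follows the uneven knockout arrays of Ccl12 rather than the closely matched ones of Ccl6 or Cx3cr1.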

How the data were processed

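The authors deposited linear MAS5 intensities of 45101 probe sets (version 5.0, per the submitters' processing notes). In these values each array's mean, trimmed by 2% at either end, was 1000. The sources used here name no genome build. Control probe sets (64) were left out. The platform annotation gave 34945 probe sets 1 symbol, 932 several and 9160 none. By gene ID 34741 matched RefSeq (GRCm38.p6), and 0 symbols were updated.

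Values were transformed as log2(signal + 16), which understates changes of dim genes, and filtered at the 40th percentile of mean log2 values. Knockout minus control was fitted in limma 3.58.1 under R 4.3.3 (lmFit, eBayes with trend, Benjamini-Hochberg over the 27022 probe sets kept, adjusted p under 0.05; residual df 2, prior df 8.33). Rose and fell refer to this threshold, and a gene was read at its brightest probe set. SEs of members come from their own arrays, other SEs from limma. The steps were tested on simulated data. The number of arrays limits the precision.

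Members and lists were chosen with earlier results of these data known. The rule named all members, Sox4, Sox11, partner ligands and receptors, up to 4 genes of each related list by size of change past the threshold, all of a direction with 5 or fewer, up to 3 per marker list, and 8 nearest genes. Other genes were chosen after their values were seen. Settings tried were other normalizations (quantile, median), pseudocounts (1, 64) and filters (none, 60th percentile), eBayes without trend, a replicate block, averaged probe sets, and each array left out.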

Additional observations from a re-analysis of the deposited data

How the results depend on the processing

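Ccl3, Ccl6, Ccl9, Ccl12 and Cx3cr1 were higher in the knockout under all 13 settings run, and the other 4 members changed sign under at least 1. For most settings this could not come out otherwise. In these 5 genes both knockout arrays lay above both controls, so no left-out array or other pseudocount could turn the sign. The filters, eBayes without trend and the replicate block left the changes themselves as they were. The change of Ccl12 ranged from 0.34 to 1.3 with a knockout array left out. Averaging probe sets gave Ccl6 1.33, Cx3cr1 0.67 and Ccr1 -0.01. Over all probe sets, 6277 passed, 3114 without the variance trend, and 3132 to 5422 with 1 array left out. Counts past the threshold with 1 array left out were 1 to 2 for CXC, XC and CX3C ligands (3 in full), 0 to 2 for other receptors (2), 3 to 8 for downstream signalling genes (12) and 3 to 5 for regulators of chemokine genes (6). Without the filter they were 1 for CXC, XC and CX3C ligands and 7 for signalling genes. Median centring gave 1 for other receptors and 7 for signalling genes, and eBayes without trend gave 1 and 6. With the 60th percentile filter 2 of 7 regulators passed, as fewer were tested. For the remaining differences the cause was not tested. Deviations from the group means correlated at 0.00283 between arrays with the same replicate number. With 2 arrays per group this value is the same for either number by construction. Whether the arrays were paired cannot be told from it. With a replicate block 6844 probe sets passed and no count of these lists changed. Among the markers, 1 of T and NK cells then passed (0 without the block), and 8 neural markers did (7 without it). Of the 16 member probe sets 12 lay under the filter, so their values are descriptions of dim signals.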
